A study of Mus musculus with 14 samples.

Results

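The protein-coding histone genes were examined by class and genomic cluster in RNA-seq of long-term haematopoietic stem cells (LT-HSCs) from old mice, before and after transplantation. They were taken by symbol, as protein-coding genes whose names start with Hist1h, Hist2h, Hist3h, Hist4h, H2af or H3f, which gave 78 of 55450 annotated genes. Of these, 67 are replication-dependent genes with a Hist symbol: 6 H1, 18 H2A, 18 H2B, 12 H3 and 13 H4. The other 11, with H2af or H3f symbols, are counted as variants, 9 of H2A and 2 of H3. The Hist1 cluster (chr13:21715763-23934851, GRCm38) holds 54 of the members, Hist2 (chr3:96219865-96270132) holds 10, Hist3 (chr11:58948920-58956830) holds 2 and Hist4 on chromosome 6 holds 1. The filter on low counts was passed by 42 members, 34 replication-dependent and 8 variant.

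The mice were female C57BL/6, and the sorted cells were Lin-, Sca-1+, c-Kit+, CD48- and CD150+. From 4 donors older than 24 months, cells with low and with high surface P-selectin, the adhesion receptor that Selp encodes, gave 4 Selp low and 4 Selp high libraries. The other groups came from lethally irradiated recipients aged 10 to 16 weeks that had received 1000 Selp low or Selp high cells: 3 Selp low-derived and 3 Selp high-derived libraries of CD45.2+ LT-HSCs taken 16 weeks later, with no gate on P-selectin. RNA of 5000 cells a sample was amplified with a SMART kit and tagmented with Nextera XT, and the labels give the molecule as polyadenylated RNA. The comparison of stages therefore also compares the donor's marrow with an irradiated younger host, and a sort without a CD45.2 gate with one that had it, and these cannot be told apart from transplantation. Separate recipients for the post-transplant libraries are not stated in the labels, so p-values measure the spread between these libraries.

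Histones package DNA into nucleosomes, and H2A, H2B, H3 and H4 form the core around which H1 binds as a linker. Replication-dependent genes lie in clusters, lack introns and are known for mRNAs that end in a conserved stem-loop in place of a poly(A) tail; the stem-loop binding protein (Slbp) recognises it, and these mRNAs are made mainly in S phase. Variant genes such as H3f3a, H3f3b and H2afz carry introns, are polyadenylated and supply histones outside replication. Some clustered genes also give polyadenylated mRNAs whose ends lie beyond the stem-loop, including in cells that have left the cycle. LT-HSCs are known as mostly quiescent cells.

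The element that marks these mRNAs is shown first, because it is the feature that replication-dependent histone mRNAs are known by. The letters GGNNCTTNTNAGNNCC with arms that pair were searched on the sense strand of annotated 3′ UTRs, and were found in 53 of 21070 protein-coding genes with such a UTR (0.252%), 47 of them members. Of 52 replication-dependent members with an annotated 3′ UTR of at least 16 bases, 46 held it. The sites below are shown 5′ to 3′ on the sense strand (GRCm38), with the 6-base arms in capitals and the 4-base loop in lower case: the commonest form, a form with another loop, 2 forms of H4, and the form of the variant H2afx.
Hist1h2ae (chr13:23570668-23570683, minus strand): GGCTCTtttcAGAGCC
Hist1h2bb (chr13:23747203-23747218, plus strand): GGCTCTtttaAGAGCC
Hist1h4d (chr13:23581950-23581965, plus strand): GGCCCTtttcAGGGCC
Hist1h4i (chr13:22040966-22040981, minus strand): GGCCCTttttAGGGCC
H2afx (chr9:44335240-44335255, plus strand): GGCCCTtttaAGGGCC
The 16-base form of Hist1h2ae was in 26 members and that of Hist1h4d in 7. The stem differed by class: all 34 sites in H1, H2A, H2B and H3 genes began GGCTC, whereas the 12 sites in H4 genes began GGCCC (10) or GGTCC (2). H2afx, the H2A variant that is phosphorylated at DNA breaks, had the GGCCC stem of the H4 genes, 47 bases after its stop codon.

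Promoters were compared in the same way, from 250 bases before to 50 bases after the RefSeq start (GRCm38.p6, both strands), for the 71 members with an entry. The letters CCAAT were in 52 of 61 replication-dependent promoters and in 41.1% of 27025 genes. All 6 H1, 17 H2A, 16 H2B and 10 H3 promoters held them, against 3 of 12 H4 promoters. TATAAA was in 35 of the 61 and in 15.7% of all genes. The octamer ATTTGCAT was in 7 of 17 H2A and 7 of 16 H2B promoters, in none of the 6 H1, 10 H3 and 12 H4 promoters, and in 1.97% of all genes. H2A and H2B genes often lie head to head, and 12 pairs of 1 H2A and 1 H2B gene had starts under 500 bases apart. The gaps between the 2 genes of a pair were 175 to 305 bases, so their promoter windows share sequence. A site in a gap can thus count in both classes, and the H2A and H2B counts are not independent. The sequence between the RefSeq starts of Hist1h2ae, to its left on the minus strand, and Hist1h2bg, to its right on the plus strand, is shown because the 2 genes moved in opposite directions (given with the H2A and H2B results). It is the plus strand of chr13:23571221-23571399 (GRCm38.p6), with CCAAT or its complement, the octamer and TATAAA in capitals.
Hist1h2ae to Hist1h2bg: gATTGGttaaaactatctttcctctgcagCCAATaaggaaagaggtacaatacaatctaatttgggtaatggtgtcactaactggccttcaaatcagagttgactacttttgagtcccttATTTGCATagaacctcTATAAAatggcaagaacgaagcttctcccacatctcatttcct

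Each library held 22374794 to 38216775 reads assigned to genes. The sorted identity was checked first: 9 markers of long-term HSCs (Slamf1, Kit, Ly6a, Procr, Hlf, Mecom, Fgd5, Hoxb5 and Ctnnal1) were read in every library, with sums of 2878 to 3622 CPM before and 2188 to 2844 CPM after transplantation, where 6 of the 9 were called lower. Sums of 10 neutrophil genes ran from 275 to 19396 CPM. The highest were in both pre-transplant libraries numbered 4 (Selp low 14194 and Selp high 19396) and Selp low-derived replicate 2 (12084), against at most 5796 elsewhere. Between stages, markers of other cell types were called in 4 lists. Of 5 megakaryocyte and platelet genes, whose sums were 194 to 363 CPM, Pf4 was at 6.69 to 37.4 CPM before and 44.3 to 99.2 CPM after (edgeR adjusted p = 0.000165), Ppbp at 0.748 to 2.05 CPM before and 5.09 to 11.7 CPM after (edgeR adjusted p = 5.82e-06) and Gp9 at 46.8 to 56.7 CPM before and 30.1 to 42.9 CPM after (edgeR adjusted p = 0.000828). Of 4 dendritic genes, with sums of 13.7 to 71.4 CPM, Flt3 was at 5.05 to 30.1 CPM before and 15.0 to 30.5 CPM after (edgeR adjusted p = 0.0142). The others of that list, Siglech, Cd209a and Irf8, were not called (edgeR adjusted p = 0.989, 0.997 and 0.65). Of 5 myeloid progenitor genes, with sums of 227 to 1337 CPM, and of 5 T cell genes, with sums of 10.2 to 25.2 CPM, 1 each was called lower. No gene was called in the lists of neutrophils, 7 erythroid genes (sums of 118 to 2304 CPM) and 8 B cell genes (63.9 to 127). The same held for 6 monocyte and macrophage genes (17.4 to 195) and 5 mast cell and basophil genes (1.23 to 158). It also held for Cd48 and Ptprc, which were listed together as sort-negative (143 to 364). Only Cd48, at 1.03 to 20.97 CPM, bears on the CD48- gate. Ptprc, at 139.7 to 355.2 CPM, made most of that sum. It encodes CD45, which the post-transplant sort selected for, so it is not a sort-negative gene. The highest mast cell and basophil sum was again in Selp low-derived replicate 2. The part of these cells in the histone results was not tested beyond leaving those libraries out.

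Most histone mRNA in these libraries came from few genes. On the scale of CPM (counts scaled to library size with TMM factors) per kb of annotated exon, averaged over all 14 libraries, H3f3b was at 433, H2afz at 127, H2afv at 102, H2afx at 79.2 and H2afy at 59.9, and H3f3b alone made 51.6% of the variant total. The highest replication-dependent members were Hist1h1c (36.6), Hist1h2ae (32.3), Hist1h1e (32.2), Hist1h4d (21.5) and Hist1h2bc (19.6), which together made 64.5% of the replication-dependent total. Per kb, the 67 replication-dependent genes made 19.3% ± 1.16 of all histone CPM in Selp low (SD, n = 4), 15.7% ± 1.75 in Selp high (SD, n = 4), 29.3% ± 5.95 in Selp low-derived (SD, n = 3) and 19.5% ± 0.349 in Selp high-derived libraries (SD, n = 3). Selp low-derived replicate 2 had the highest share, 36.1%, and the other 2 of its group had 27.0% and 24.9%. These shares are of the polyadenylated RNA that the labels name, in which mRNAs without a poly(A) tail may be under-counted.

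The 36 members that did not pass the filter were 33 replication-dependent and 3 variant genes. No read was assigned in any library to Hist2h2aa1, Hist2h2aa2, Hist2h2bb, Hist2h3b, Hist2h3c1, Hist1h2br, H2afb1, H2afb2 or H2afb3; 5 of these, all in Hist2, hold no 50-base stretch that is unique among annotated transcripts, and reads that map to several places were not counted. Over replication-dependent members, the median share of unique 50-base stretches was 68.3% past the filter and 21.1% below it. So a low value can mean few transcripts or few countable reads, and for near-identical genes such as Hist1h2ai, Hist1h2an and Hist1h3i (9.88, 14.2 and 12.4% unique) the split between copies is uncertain.

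Levels also parted by how far the annotated transcript runs on past the stem-loop. Of the 46 replication-dependent members with the element, 23 have an annotated end more than 100 bases beyond it, and 18 of these passed the filter, with a median of 1.16 and a highest value of 36.6 CPM per kb. The other 23 end within 100 bases, 9 passed, and their median was 0.338 and their highest value 5.36 CPM per kb, for Hist1h2ab. The same 2 sets differed in unique sequence, with medians of 75.4% and 39.6% of 50-base stretches, and in length, with medians of 1249 and 485 bases, so the 3 properties cannot be told apart here. Hist1h2bc, whose annotated 3′ UTR holds no such letters, and Hist1h1b, which has no annotated 3′ UTR, are in neither set. The share of each gene's transcripts that carried a poly(A) tail was not measured.

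**Figure D1:**
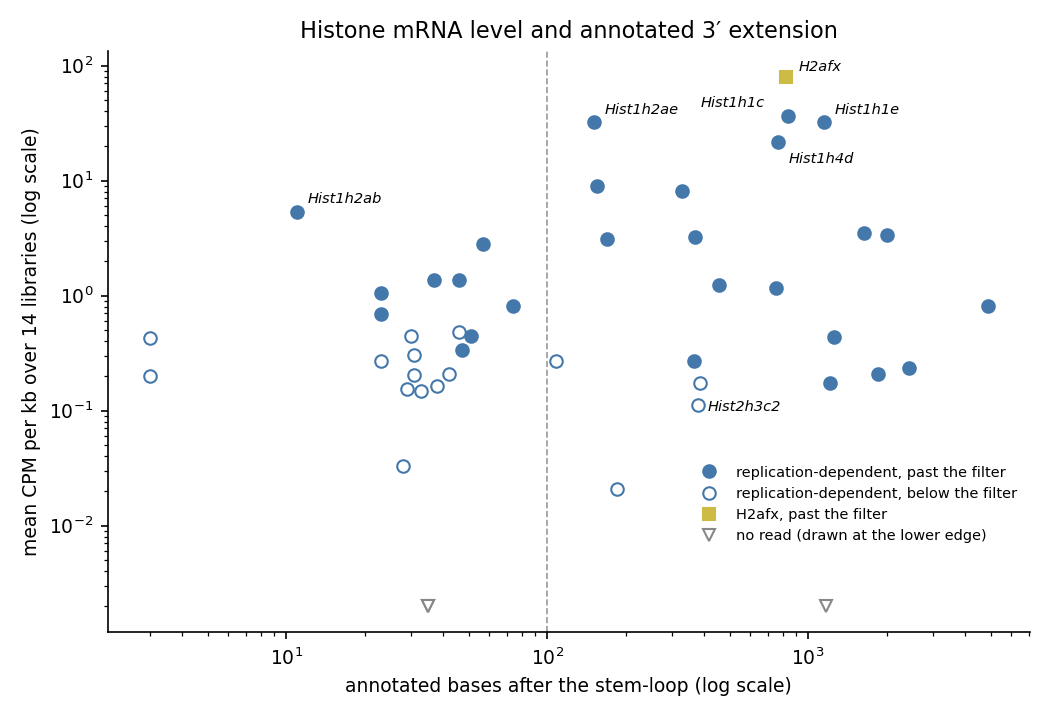
Mean level over the 14 libraries, in CPM per kb (log scale), against the annotated bases after the stem-loop (log scale), for the 46 replication-dependent members with the element and H2afx; the dashed line is at 100 bases, open circles did not pass the filter, and triangles had no read. The members above 10 CPM per kb (Hist1h1c, Hist1h2ae, Hist1h1e, Hist1h4d and H2afx) all lie to the right of the line.

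After transplantation 19 of the 42 tested histone genes were higher and 3 were lower than before. By edgeR's quasi-likelihood test with Benjamini-Hochberg adjustment over the 16878 genes tested, these 19 stood against 12.9% of all genes called higher and the 3 against 14.6% called lower. Fitted changes were above 0 in 37 of 42 members and in 8293 of 16878 genes. The median log2 change was 0.74 over the 42 members and -0.01 over all genes. It was 0.90 over 34 replication-dependent members (14 higher, 2 lower) and 0.49 over 8 variants (5 higher, 1 lower). In 7 members every post-transplant library was above every pre-transplant one, against 4.28% of genes, and in none was it below, against 5.47%. In bulk RNA, a change in the number of cells with an mRNA and a change in its amount per cell cannot be told apart.

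The calls fell unevenly over classes and clusters. All 16 called replication-dependent genes lie in Hist1, where 14 of 28 tested members were called higher and 2 lower (median 1.08). None of the 3 tested Hist2 members (median 0.52, smallest edgeR adjusted p = 0.0759), the 2 Hist3 members (0.285) or the Hist4 member (0.97) was called. An unadjusted p under 0.05 was found for 1, 0 and 0 of them, against 6575 of 16878 genes. The difference between clusters was not tested. By class, 4 of 5 tested H1 genes were called higher and 1 lower, 3 of 7 H2A genes higher, 2 of 8 H2B genes higher and 1 lower, 3 of 8 H3 genes higher, and 2 of 6 H4 genes higher. The medians were 1.01 for H1, 1.15 for H2A, 0.48 for H2B, 1.20 for H3 and 0.29 for H4. Leaving out Selp low-derived replicate 2 gave 0.09 for H4, whose median was 1.15 with a minimum count of 50, and the H2B median was 1.09 with no filter, so the order of the classes depended on these settings.

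**Figure D2:**
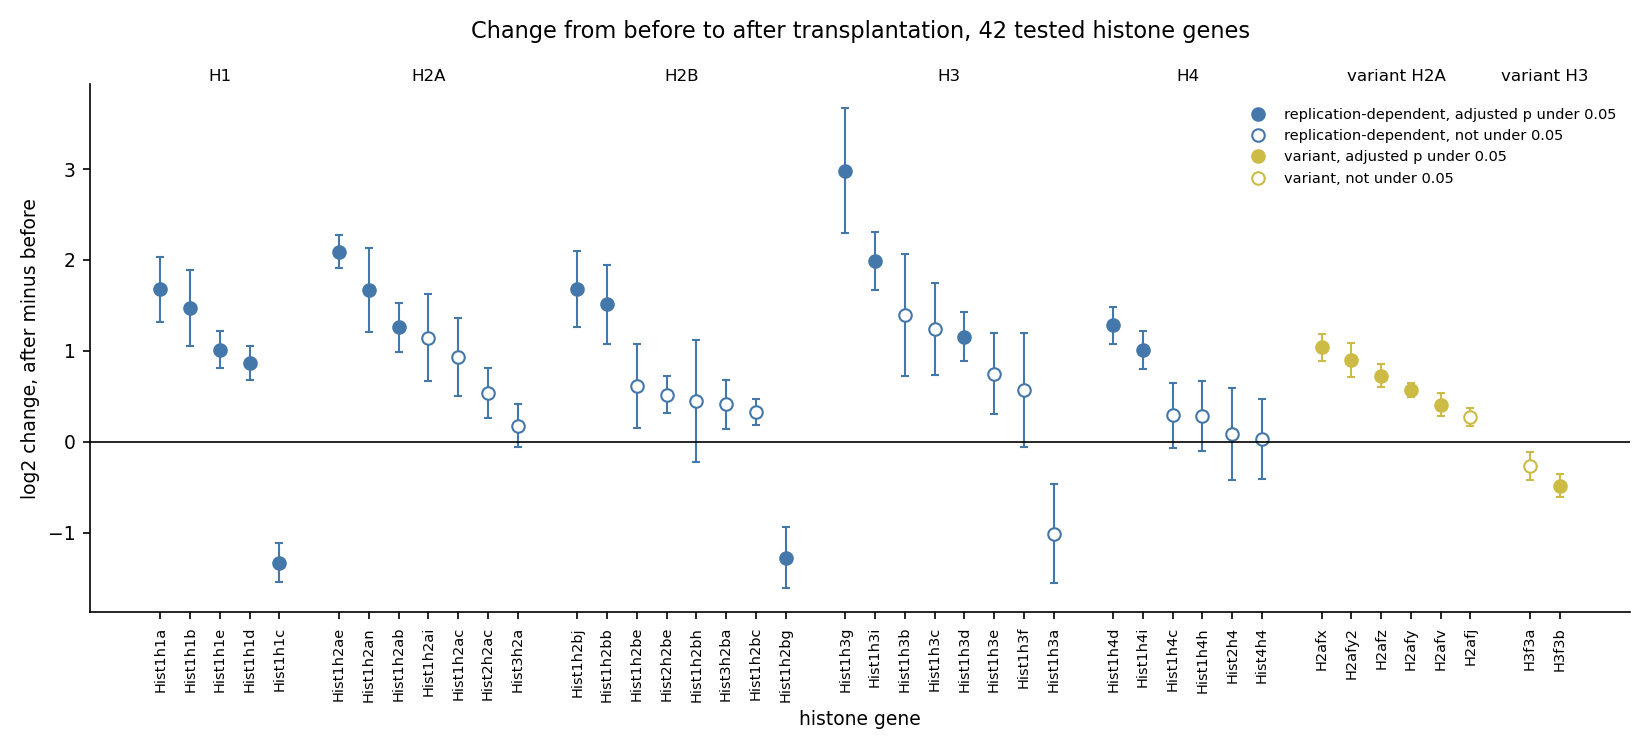
Log2 change from before to after transplantation (mean of both inputs) of the 42 tested members by class; bars are the SE of the edgeR fit and filled points have an adjusted p under 0.05. Filled points lie above 0 in each class except variant H3, and below 0 for Hist1h1c, Hist1h2bg and H3f3b.

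Summed over each class, tested or not, H2A was the replication-dependent class whose libraries did not overlap between stages. Its summed CPM was 26.7, 26.7, 27.2 and 31.2 in Selp low, 19.1, 24.8, 22.6 and 27.9 in Selp high, 83.0, 124 and 50.3 in Selp low-derived and 50.6, 52.5 and 47.2 in Selp high-derived libraries, so every library after was above every library before. This separation depended on Hist1h2ae, a large part of the H2A sums, whose values are given further on. Without that gene the H2A sums of the stages overlapped. H4 sums were 30.7, 20.1, 18.8 and 20.8 in Selp low, 19.9, 23.0, 16.0 and 25.0 in Selp high, 69.0, 89.7 and 40.5 in Selp low-derived and 34.3, 28.5 and 41.4 in Selp high-derived libraries; here the 2 stages overlapped, through Selp low replicate 1 and Selp high-derived replicate 2. H1 sums overlapped throughout, at 82.1 to 186 CPM before and 96.1 to 214 CPM after, and its 2 most abundant genes went opposite ways. Selp low-derived replicate 2, the post-transplant library with the most neutrophil RNA, had the highest sum in all 5 replication-dependent classes. Selp low and Selp high replicates 4 had more neutrophil RNA. Their sums over all replication-dependent genes were 215 and 207 CPM, the lowest and the highest of their groups. The part of neutrophil RNA in these sums was not tested.

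**Figure D3:**
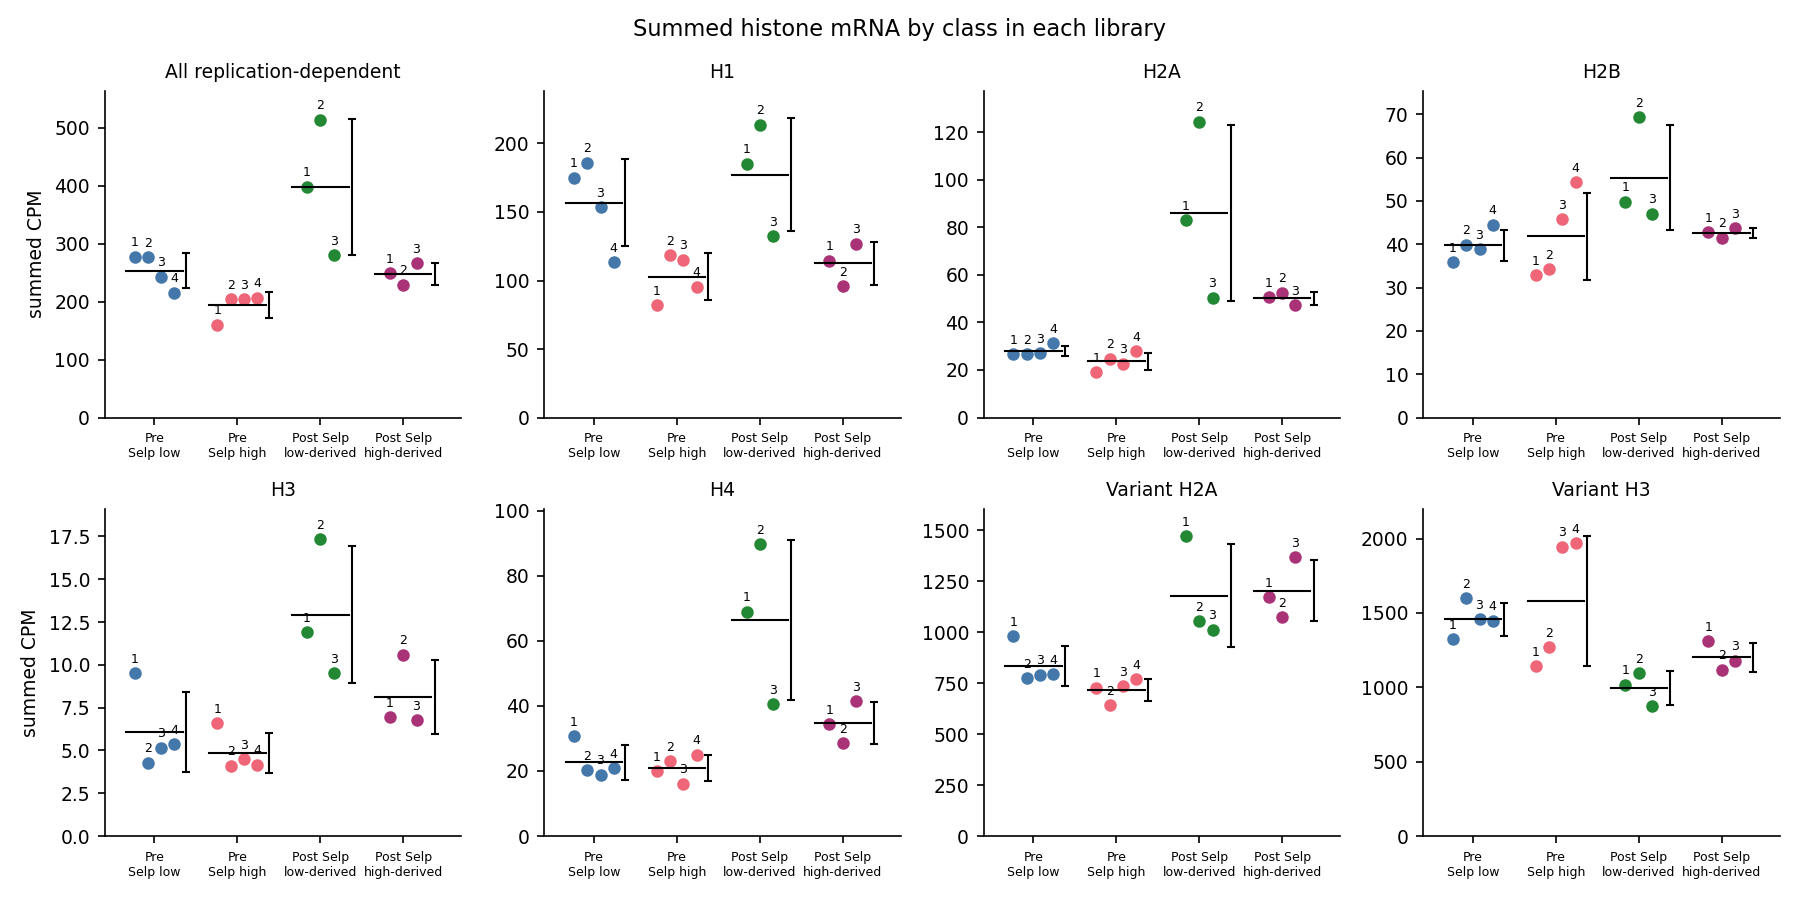
Summed CPM of each histone class in each library by group; points are libraries with their replicate numbers, lines are means and bars are SD (n = 4, 4, 3 and 3). The H2A sums after transplantation (47.2 to 124) lie above all those before (19.1 to 31.2), and Selp low-derived replicate 2 is the highest point in each replication-dependent panel. Without Hist1h2ae the H2A sums of the stages overlap.

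Linker histone genes changed in both directions, and Hist1h1e stood above Hist1h1c per kb after transplantation but not before. Hist1h1c (ENSMUSG00000036181.2, chr13:23738808-23740367, plus strand) was at 101, 138, 71.0 and 64.2 CPM in Selp low, 52.5, 63.0, 70.7 and 55.7 in Selp high, 33.0, 54.7 and 22.7 in Selp low-derived and 19.1, 25.3 and 28.4 in Selp high-derived libraries. Every library after was below every library before except Selp low-derived replicate 2, which lay among the Selp high libraries, and the log2 change was -1.33 ± 0.21 (SE, edgeR adjusted p = 0.000401). Hist1h1e (ENSMUSG00000051627.3, chr13:23620629-23622558, minus strand) was at 56.3, 38.5, 72.7 and 32.9 CPM in Selp low, 23.9, 50.5, 36.6 and 26.5 in Selp high, 121, 143 and 91.6 in Selp low-derived and 69.3, 47.4 and 60.5 in Selp high-derived libraries. The Selp low-derived libraries were above all others, the Selp high-derived ones overlapped those before, and the change was 1.01 ± 0.20 (SE, edgeR adjusted p = 0.00218).

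Hist1h1c was at 60.0 and 38.8 CPM per kb in Selp low and Selp high means, against 26.0 and 17.8 for Hist1h1e. After transplantation Hist1h1c was at 23.6 and 15.5, and Hist1h1e at 61.4 and 30.6. Both genes carry the commonest stem-loop (printed for Hist1h2ae) and both have long annotated ends, 840 and 1153 bases past it.

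The 3 other tested H1 genes rose. Hist1h1b had 1.19 to 10.3 CPM before (median 3.05, n = 8) and 5.96 to 24.3 CPM after (median 12.6, n = 6), with a log2 change of 1.47 ± 0.41 (SE, edgeR adjusted p = 0.0167). Hist1h1a had 0.411 to 3.95 CPM before (median 1.47, n = 8) and 2.61 to 8.20 CPM after (median 4.36, n = 6), with 1.68 ± 0.36 (SE, edgeR adjusted p = 0.00345), and Hist1h1d had 2.24 to 7.62 CPM before (median 4.23, n = 8) and 6.33 to 9.26 CPM after (median 8.14, n = 6), with 0.87 ± 0.19 (SE, edgeR adjusted p = 0.00337). In each of the 3 the ranges of the stages overlapped. The call of Hist1h1b ended without Selp low-derived replicate 1 (adjusted p = 0.0555) or Selp high-derived replicate 3 (0.0529), the libraries in which it was highest of each derived group. Hist1h1t, the testis H1 gene, did not pass the filter.

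Among core histones the clearest rise was that of Hist1h2ae, an H2A gene (ENSMUSG00000069272.6, chr13:23570517-23571220, minus strand). It was at 12.7, 10.2, 10.6 and 12.2 CPM in Selp low, 6.58, 7.18, 6.64 and 7.61 in Selp high, 58.3, 75.0 and 31.7 in Selp low-derived and 32.8, 17.6 and 28.7 in Selp high-derived libraries. Every post-transplant library exceeded every pre-transplant one, and the log2 change was 2.09 ± 0.18 (SE, edgeR adjusted p = 4.45e-06), or 4.26-fold. Its head-to-head neighbour Hist1h2bg, an H2B gene (ENSMUSG00000058385.8, chr13:23571396-23572013, plus strand), was at 6.17, 11.6, 8.76 and 8.76 CPM in Selp low, 3.29, 6.09, 7.40 and 7.33 in Selp high, 2.09, 7.84 and 2.06 in Selp low-derived and 1.96, 3.36 and 1.52 in Selp high-derived libraries. It fell, with stages that overlapped, through Selp low-derived replicate 2, and its change was -1.27 ± 0.34 (SE, edgeR adjusted p = 0.0124). Without that library it was -1.75 (adjusted p = 0.000527). The 179 bases printed above lie between the RefSeq starts of the 2 genes, and the gene coordinates given here leave 175 bases between them. Both genes have the same stem-loop letters, and they end 151 and 155 bases after the stem-loop.

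The other pairs with both members tested did not part in this way. Hist1h2ac and Hist1h2bc changed by 0.93 ± 0.43 and 0.33 ± 0.14, and Hist2h2ac and Hist2h2be by 0.53 ± 0.27 and 0.52 ± 0.20 (SE), none of the 4 called (adjusted p = 0.122, 0.107, 0.164 and 0.0759). Without both pre-transplant libraries numbered 4, whose neutrophil sums were high, Hist1h2bc and Hist2h2be were called higher, at 0.43 and 0.71 (adjusted p = 0.037 and 0.0139). With the replicate block, Hist1h2ac was called higher at 0.60 and Hist2h2be at 0.53 (adjusted p = 0.0202 and 0.0109). That block also joins post-transplant libraries by number, although same-numbered ones did not deviate together (r -0.05 to 0.02). Without Selp low-derived replicate 2, Hist1h2ac was at 0.47 (adjusted p = 0.415). Hist1h2ac was uneven between libraries, at 4.55, 7.28, 5.56 and 5.12 CPM in Selp low, 3.79, 9.79, 3.86 and 7.73 in Selp high, 7.65, 25.2 and 6.05 in Selp low-derived and 4.37, 21.7 and 3.84 in Selp high-derived libraries. Replicates 2 of both derived groups were also the highest of the post-transplant libraries in Hist1h3e, an H3 gene, which was at 3.64, 1.20, 1.20 and 1.94 CPM in Selp low, 3.10, 2.24, 1.48 and 1.35 in Selp high, 2.31, 8.85 and 2.75 in Selp low-derived and 1.32, 5.17 and 1.01 in Selp high-derived libraries. Their neutrophil sums were 12084 and 1982 CPM. Selp high-derived replicate 3 had a neutrophil sum of 1924 CPM, with Hist1h2ac at 3.84 and Hist1h3e at 1.01 CPM. Selp low and Selp high replicates 4 had neutrophil sums of 14194 and 19396 CPM, with Hist1h2ac at 5.12 and 7.73 CPM. The part of neutrophil RNA in the 2 genes was not tested.

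Of the other H2A and H2B genes, Hist1h2ab was called higher. Hist1h2ab had 0.7103 to 2.699 CPM before (median 1.64, n = 8) and 2.40 to 6.15 CPM after (median 3.57, n = 6) and rose by 1.26 ± 0.27 (SE, edgeR adjusted p = 0.00349). Hist3h2a had 5.60 to 8.85 CPM before (median 6.59, n = 8) and 5.02 to 16.0 CPM after (median 6.51, n = 6), a change of 0.17 ± 0.24 that was not called (adjusted p = 0.626) and that was -0.16 without Selp low-derived replicate 2. Hist2h2be had 6.69 to 13.3 CPM before (median 8.83, n = 8) and 8.66 to 19.0 CPM after (median 13.2, n = 6). A further 4 called genes were singled out after their values were seen, all under 2 CPM in every library: Hist1h2an (1.66 ± 0.46), Hist1h2bj (1.68 ± 0.42), Hist1h2bb (1.51 ± 0.44) and the H3 gene Hist1h3g, which had the largest fitted change of the 42, 2.98 ± 0.69 (SE, edgeR adjusted p = 0.00535), from 0.00 to 0.242 CPM before to 0.172 to 0.513 CPM after. All 18 replication-dependent H2A genes overlap an annotated gene on the other strand, and reads in the overlap were left out as ambiguous. With the deposited counts of both strands summed, which gives such reads to both genes, H2A sums were 36.3 to 63.0 CPM before and 102 to 268 CPM after.

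Of 14 tested H3 and H4 genes in the clusters, 5 rose and none was called lower. Hist1h4d, the most abundant H4 gene (ENSMUSG00000061482.7, chr13:23581598-23582735, plus strand), was at 21.1, 12.2, 12.001 and 13.9 CPM in Selp low, 12.5, 17.5, 10.6 and 15.6 in Selp high, 53.1, 73.6 and 30.9 in Selp low-derived and 23.3, 18.2 and 28.3 in Selp high-derived libraries. The Selp low-derived libraries were above all others, the Selp high-derived ones overlapped those before, and the change was 1.28 ± 0.20 (SE, edgeR adjusted p = 0.000358). Hist1h4i had 2.68 to 5.50 CPM before (median 4.20, n = 8) and 6.14 to 11.02 CPM after (median 7.99, n = 6), without overlap, and rose by 1.00 ± 0.21 (SE, edgeR adjusted p = 0.00275). Hist1h4c, at 0.374 to 1.77 CPM over all libraries, changed by 0.29 ± 0.36 (adjusted p = 0.586). Of the H3 genes, Hist1h3i rose by 1.99 ± 0.32 (SE, edgeR adjusted p = 0.000395), from 0.172 to 0.810 CPM to 1.13 to 2.82 CPM, and Hist1h3d by 1.16 ± 0.27 (SE, edgeR adjusted p = 0.00558), with stages that overlapped. Hist1h3e changed by 0.75 ± 0.44 (adjusted p = 0.228), or by 0.31 without Selp low-derived replicate 2.

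**Figure D4:**
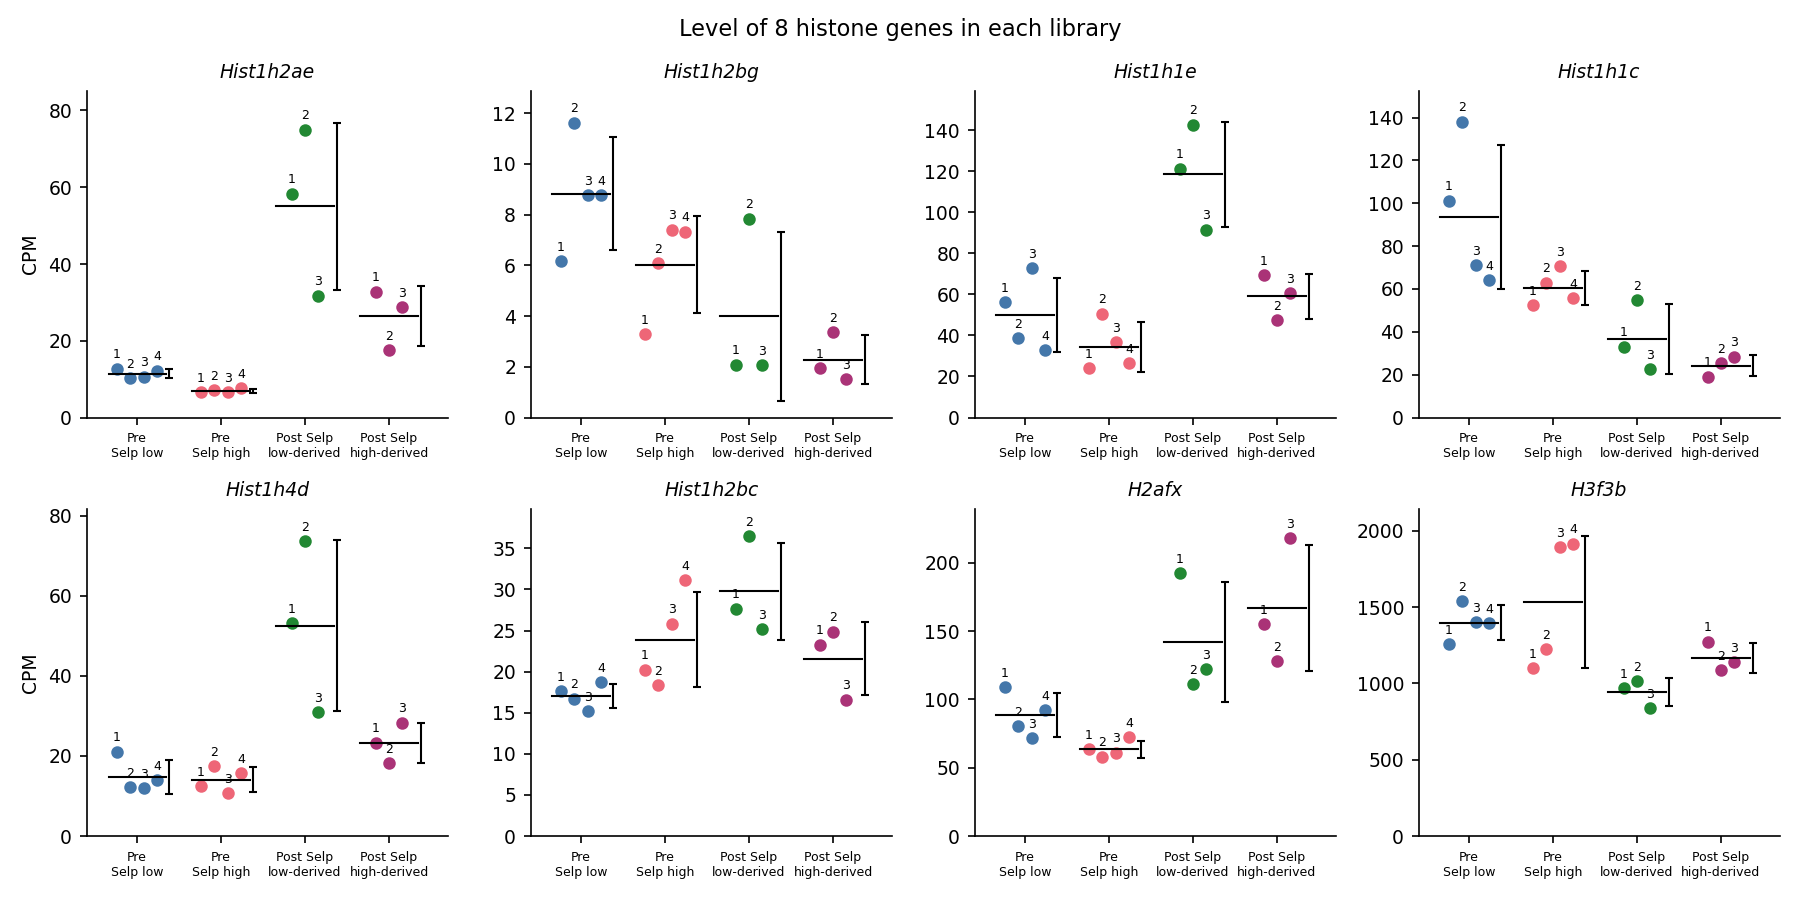
CPM of 8 members in each library by group; points are libraries with their replicate numbers, lines are means and bars are SD (n = 4, 4, 3 and 3). Hist1h2ae, H2afx and, in Selp low-derived libraries, Hist1h1e and Hist1h4d are higher after transplantation, while Hist1h2bg, Hist1h1c and H3f3b have lower means; Selp low-derived replicate 2 is the highest of its group in 7 of the 8 panels.

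The variants parted by class: 5 of 6 tested H2A variants rose, and of the 2 H3 variant genes 1 fell. H2afx (ENSMUSG00000049932.3, chr9:44334694-44336077, plus strand) was at 109, 80.5, 71.7 and 92.0 CPM in Selp low, 63.4, 57.9, 60.9 and 72.3 in Selp high, 193, 111 and 122 in Selp low-derived and 155, 128 and 218 in Selp high-derived libraries. All 6 values after exceeded the 8 before, and the change was 1.04 ± 0.15 (SE, edgeR adjusted p = 0.000164). H2afz, the variant placed at promoters, had 139 to 214 CPM before (median 173, n = 8) and 244 to 389.6 CPM after (median 276, n = 6), without overlap, and rose by 0.73 ± 0.13 (SE, edgeR adjusted p = 0.000745). H2afy, a macroH2A gene linked to silent chromatin, had 294 to 419 CPM before (median 332, n = 8) and 439 to 581 CPM after (median 484, n = 6), also without overlap, and rose by 0.57 ± 0.08 (SE, edgeR adjusted p = 0.000156). Its paralogue H2afy2 rose by 0.90 ± 0.19 (SE, edgeR adjusted p = 0.00286), with 3.91 to 6.23 CPM before (median 4.99, n = 8) and 5.45 to 11.9 CPM after (median 9.73, n = 6).

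H2afv, the close relative of H2afz, had 121 to 195 CPM before (median 141, n = 8) and 159 to 248 CPM after (median 175, n = 6) and rose by 0.41 ± 0.12 (SE, edgeR adjusted p = 0.0256), a call that ended without Selp low-derived replicate 1 (adjusted p = 0.0846) or Selp high-derived replicate 3 (0.0918). H2afj, outside the rule for named genes and given as the remaining tested H2A variant, changed by 0.27 ± 0.10 (adjusted p = 0.054).

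H3f3b and H3f3a encode the same replacement H3 protein from separate genes. H3f3b (ENSMUSG00000016559.14, chr11:116021912-116027962, minus strand) was at 1256, 1539, 1401 and 1395 CPM in Selp low, 1099.5, 1225, 1893 and 1917 in Selp high, 970.5, 1015 and 839 in Selp low-derived and 1274, 1088 and 1138 in Selp high-derived libraries. Selp high replicates 3 and 4 were the highest, the stages overlapped, and the gene fell by 0.48 ± 0.13 on the log2 scale (SE, edgeR adjusted p = 0.0111). H3f3a was at 67.4, 61.4, 55.4 and 53.5 CPM in Selp low, 43.1, 42.6, 50.9 and 50.6 in Selp high, 46.1, 79.1 and 34.3 in Selp low-derived and 36.4, 31.3 and 41.4 in Selp high-derived libraries. Selp low-derived replicate 2 was its highest library, and the change was -0.26 ± 0.15 (SE, edgeR adjusted p = 0.226). Without that library H3f3a was called lower, with a log2 change of -0.46 (adjusted p = 0.00717), which made 4 members lower and 19 higher. Without both pre-transplant libraries numbered 4, 22 members were higher and 3 lower.

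The same comparison within each input set separate libraries against each other, but in 1 model whose scaling and spread estimates all libraries share. The Selp comparisons further on use the same libraries again. For Selp low input, 8 members were called higher (5.01% of all genes) and 1, Hist1h1c, lower (6.46%). For Selp high input, 14 were called higher (7.63%) and 1, again Hist1h1c, lower (7.62%). The median change of the 42 members was 0.73 for Selp low and 0.68 for Selp high input. Hist1h4d changed by 1.83 ± 0.29 (SE, edgeR adjusted p = 0.00171) with Selp low and 0.73 ± 0.28 (SE, edgeR adjusted p = 0.104) with Selp high input, and Hist1h1d by 0.51 ± 0.26 (SE, edgeR adjusted p = 0.231) and 1.23 ± 0.27 (SE, edgeR adjusted p = 0.00641). The difference between inputs, tested as an interaction, was not called for Hist1h4d or Hist1h1d (edgeR adjusted p = 0.879 and 0.879). These counts rested on few libraries: the 8 became 4 without Selp low replicate 2 or 3 and 3 without Selp low-derived replicate 1, and the 14 became 9, 8 and 5 without Selp high replicate 3, Selp high-derived replicate 1 and Selp high-derived replicate 3.

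Before transplantation, 33 of 42 members had lower values in Selp high than in Selp low cells, and none passed the test. By edgeR 0 of 42 members were called, as was 0% of all genes. An unadjusted p under 0.05 was found for 8 members, against 863 of 16878 genes. DESeq2 and limma voom also called 0 members. Of all genes, 8889 of 16878 had lower values, and the median difference was -0.34 over the members and -0.02 over all genes. Leaving out Selp low replicate 1 gave a members' median of -0.20, and leaving out Selp high replicate 2 gave -0.21. The 4 Selp high libraries lay below the 4 Selp low ones in 7 members, against 1.56% of genes, and above them in 0, against 1.52%. The 7 were Hist1h2ae, Hist1h1d, Hist1h3d, Hist3h2ba, Hist2h4, H2afy and H3f3a, of which Hist3h2ba and Hist2h4 were named after their values were seen.

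Each of the 5 tested H1 genes had a lower fitted value in Selp high cells. Selp low libraries 1 to 4 had H1 sums of 175, 186, 153 and 113 CPM, and the Selp high libraries with the same numbers had 82.1, 119, 115 and 95.5 CPM, lower in each of the 4 pairs. Differences were -0.72 ± 0.25 for Hist1h1d, -0.63 ± 0.27 for Hist1h1c and -1.15 ± 0.49 for Hist1h1a (SE, unadjusted p = 0.0114, 0.0335 and 0.0329, edgeR adjusted p = 0.957 for each). Hist1h2ae, at 11.4 ± 1.20 CPM (SD, n = 4) against 7.001 ± 0.485 CPM in Selp high cells (SD, n = 4), differed by -0.71 ± 0.24 (unadjusted p = 0.0103, edgeR adjusted p = 0.957). Hist1h2bc went the other way, by 0.49 ± 0.19 (unadjusted p = 0.0227, edgeR adjusted p = 0.957), and was highest before transplantation in Selp high replicate 4, which also had the highest neutrophil sum.

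After transplantation 0 members were called between Selp high-derived and Selp low-derived cells, as was 0% of all genes. An unadjusted p under 0.05 was found for 6 members, against 765 of 16878 genes. DESeq2 and limma voom also called 0 members. Values were lower in Selp high-derived cells for 30 of 42 members (median -0.36, all genes 0.01). In 7 members the Selp high-derived libraries lay below the Selp low-derived ones, against 5.55% of genes, and in 1, H3f3b, above, against 4.79%. Hist1h2ae was at 55.0 ± 21.9 CPM in Selp low-derived and 26.4 ± 7.87 CPM in Selp high-derived cells (SD, n = 3 each), a difference of -1.06 ± 0.27 (unadjusted p = 0.00156, edgeR adjusted p = 0.752). Hist1h4d and Hist1h1e differed by -1.17 ± 0.31 and -1.01 ± 0.31 (unadjusted p = 0.00187 and 0.00602, edgeR adjusted p = 0.769 and 0.979). The members' median rested on Selp low-derived replicate 2: it was -0.06 without it, -0.02 without it and Selp high-derived replicate 1, and -0.58 without replicate 3 of the same group. Without replicate 2 the differences of Hist1h2ae, Hist1h4d and Hist1h1e were -0.77, -0.85 and -0.85, and 3 members had an unadjusted p under 0.05. Summed over the 67 replication-dependent genes, CPM was 399, 514 and 279.9 in Selp low-derived and 249, 229 and 266 in Selp high-derived libraries, without overlap.

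The P-selectin effect itself was compared between stages by an interaction term, and 0 of 42 members and 0% of genes were called. DESeq2 and limma voom also called 0 members. Of all 16878 genes, 874 had an unadjusted p under 0.05, among them 3 of the 42 members. These were Hist1h2bc (interaction -0.95 ± 0.29, unadjusted p = 0.00546), Hist1h4d (-1.10 ± 0.41, 0.0167) and H2afx (0.71 ± 0.30, 0.0322), each with an edgeR adjusted p of 0.879. Hist1h2bc was at 17.6, 16.7, 15.2 and 18.7 CPM in Selp low, 20.2, 18.4, 25.8 and 31.1 in Selp high, 27.6, 36.5 and 25.2 in Selp low-derived and 23.3, 24.9 and 16.6 in Selp high-derived libraries. Its fitted value was higher with Selp high before and lower with Selp high-derived after, without overlap in the second case. Neither difference was called.

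Genes for making, processing and loading histones were called higher more often than lower, where 12.9% of all genes were called higher and 14.6% lower. Of 15 genes for histone transcription and 3′ end processing, 9 were called higher and 0 lower after transplantation (median 0.32). Group means of Slbp were 85.4 and 80.0 CPM before and 142 and 165 CPM after (low then high input), a change of 0.89 (adjusted p = 0.000815), and Npat, the coactivator of histone genes, changed by 0.46 (adjusted p = 0.00794). Cpsf2, a subunit of the cleavage machinery, changed by 0.59 (adjusted p = 0.000234), while the U7 snRNP genes Lsm10 and Lsm11 changed by -0.26 (adjusted p = 0.102) and 0.25 (adjusted p = 0.215). Of 13 chaperones of replication-coupled deposition, 10 were called higher and 0 lower (median 0.73). Those of smallest p were Mcm2, which changed by 1.20 (adjusted p = 2.34e-05), and the CAF-1 subunit genes Chaf1a and Chaf1b. The latter changed by 1.55 (adjusted p = 3.06e-05) and 0.70 (adjusted p = 0.000117). Given as further list members, Nasp, an H3-H4 chaperone, changed by 1.40 (adjusted p = 0.000125) and Asf1b by 1.51 (adjusted p = 0.000967).

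Of 13 chaperones and remodellers of variants, 8 were called higher and 1 lower (median 0.47). Hjurp, which loads the centromeric H3, changed by 0.81 (adjusted p = 7.59e-05) and Daxx, a chaperone of the replacement H3, by -0.29 (adjusted p = 0.0275). Of 6 general chaperones 3 were called higher and 0 lower, among them the FACT subunit gene Supt16, which changed by 0.62 (adjusted p = 0.000158). Of 3 tested histone genes outside the symbol rule, Cenpa, the centromeric H3, rose by 1.43 (adjusted p = 7.5e-05) and H1fx by 0.68 (adjusted p = 0.00629), and H1f0, an H1 gene of non-dividing cells, changed by 0.19 (adjusted p = 0.246). These adjusted p-values are edgeR's.

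S-phase genes were set beside the histones by library. Of 30, 28 were called higher and 0 lower after transplantation (median 1.38), against 12.9% and 14.6% of all genes. Before transplantation 27 of the 30 were at lower fitted values with Selp high (median -0.37, smallest edgeR adjusted p = 0.957), as were 33 of the 42 histone members (median -0.34). After it 8 of the 30 were lower with Selp high-derived (median 0.09), and so were 30 of the 42 histone members (median -0.36). The summed CPM of the S-phase genes was 2005, 2213, 2234 and 2895 in Selp low, 1677, 1480.3, 1641 and 2341 in Selp high, 6639, 3167 and 4397 in Selp low-derived and 4819.5, 4839.5 and 5752 in Selp high-derived libraries, and all 6 libraries after were above the 8 before. The summed CPM of the 67 replication-dependent genes was 278, 277, 243 and 215 in Selp low, 160.4, 205, 204 and 207 in Selp high, 399, 514 and 279.9 in Selp low-derived and 249, 229 and 266 in Selp high-derived libraries, with overlap. Within the post-transplant libraries the 2 sums ranked differently: Selp low-derived replicate 2 had the lowest S-phase sum after transplantation, 3167 CPM, with the highest histone sum, 514 CPM. Selp high-derived libraries had S-phase sums of at least 4819.5 CPM and histone sums of at most 266 CPM, below those of Selp low replicates 1 and 2 (278 and 277). No correlation is given, because the libraries fall into separate groups. The labels give polyadenylated RNA. How far histone mRNAs that end in the stem-loop without a poly(A) tail entered these sums was not measured.

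**Figure D5:**
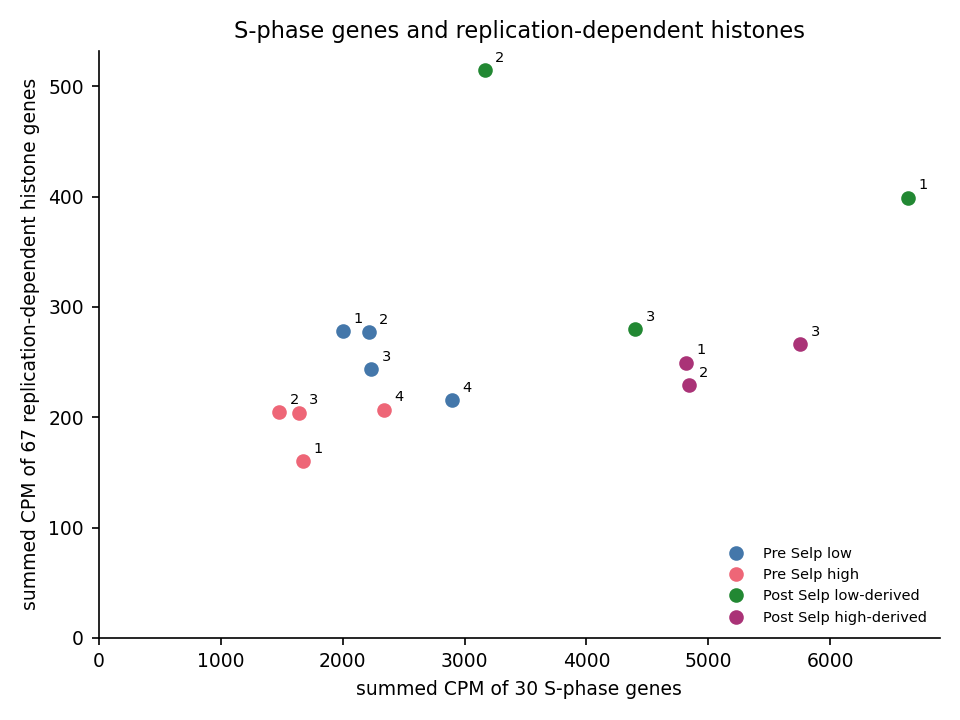
Summed CPM of 67 replication-dependent histone genes against summed CPM of 30 S-phase genes in each of the 14 libraries, coloured by group and marked with replicate numbers. Libraries after transplantation lie to the right of those before, and Selp low-derived replicate 2 lies above all others at an S-phase sum of 3167 CPM. The labels give polyadenylated RNA, in which histone mRNAs without a poly(A) tail may be under-counted.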

How the data were processed

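The authors deposited raw gene counts from STAR for 14 libraries. FastQC 0.11.9, Picard 2.23.0, STAR 2.7.0d and the build GRCm38 are named per the submitters' processing notes; the annotation release is not stated there, and all 55450 gene identifiers matched GENCODE M21, from which symbols, exons and 3′ UTRs were taken. The deposited unstranded count of each gene was used, since both strand columns held near equal totals (ratio 0.989 to 0.999). Of all reads, 9.93 to 13.4% mapped to several places, 4.20 to 4.79% were ambiguous, 3.37 to 5.13% fell in no gene and 3.35 to 5.06% did not map; they entered no test. These counts give 22374794 to 38216775 assigned reads a library.

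Samples were grouped by the labels. With R 4.3.3, edgeR 4.0.16 was fitted to all genes past filterByExpr (minimum count 10) in 1 model of the 4 groups with TMM scaling and a quasi-likelihood test (16878 genes, 10 residual degrees of freedom), with p-values adjusted over all of them at 0.05. The stage comparison is the mean over both inputs. limma 3.58.1 (voom), DESeq2 1.42.0, other scalings, filters and counts, a replicate block and each library left out were the alternatives. The fit was tested on simulated data. The members and lists were chosen with earlier results of these data known. A marker gene of the stem cell list is not reported here.

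Members were named by class level (the 3 of highest mean CPM), by size of change among those called whose mean log2 CPM reached 1 (up to 12 a direction), and by smallest p in the Selp comparisons (3 each); from the pathway lists, up to 3 called genes a group were named, with Slbp and Npat, and any other gene is marked or was given as a list member. Before transplantation same-numbered Selp low and Selp high libraries deviated together (r 0.29 to 0.53, against -0.40 to 0.05 for other pairs), and the design text gives 4 mice; after it they did not (-0.05 to 0.02). No 2 libraries of a group agreed within counting noise (chi-square per gene at least 17.1).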

Additional observations from a re-analysis of the deposited data

Results flagged for a closer look

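In groups of 4 libraries, 1 value stood apart from the other 3 by Dixon's criterion in 6 of the 68 groups examined, and chance gives about 1 in 20. Selp low replicate 1 stood apart in 3: its replication-dependent H4 sum was 30.7 CPM (others 18.8 to 20.8), its variant H2A sum 980.1 CPM (others 775 to 793) and its Hist1h1a level 3.95 CPM (others 1.36 to 1.59). Selp high replicate 1 had a lower sum over all replication-dependent genes, 160.4 CPM (others 204 to 207), and a higher H3 sum, 6.58 CPM (others 4.11 to 4.47). The H2A sum of Selp low replicate 4 was 31.2 CPM (others 26.7 to 27.2).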

How the results depend on the processing

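Over 25 alternatives, 14 of them leaving out 1 library, no member was called in either Selp comparison or in their difference wherever the comparison could be fitted. The 19 members higher after transplantation were 16 to 23 with 1 library left out, 20 with DESeq2, 21 with limma voom, 16 with a minimum count of 50, 25 with both strand counts summed and 22 with the replicate block. The 3 lower were 3 with the block.

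Counts within 1 input were less stable. For Selp low input, 8 higher became 3 to 10 and 1 lower became 0 to 3 with 1 library left out, the 0 without Selp low-derived replicate 1 and the 3 without its replicate 2. The 1 lower became 2 with DESeq2, limma voom or only the groups compared, 2 without both libraries numbered 4, and 2 without Selp low-derived replicate 2 and Selp high-derived replicate 1 together. With the replicate block, 12 were higher and 3 lower. For Selp high input, 14 higher became 5 to 15 and 1 lower became 1 to 3, the 3 without Selp high replicate 1. Without Selp low-derived replicate 2 and Selp high-derived replicate 1 together, 9 were higher. The 1 lower became 2 with DESeq2, only the groups compared or the replicate block, with which 15 were higher. The cause was not tested. Of the 36 members below the filter, 5 hold no unique 50-base stretch; the part of depth in the low values was not tested.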
